A study of Homo sapiens with 4 samples.

Results

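The genes of the cytosolic ribosome were compared between a drug-resistant subline of a breast cancer cell line, MDA-MB-468/R, and its parental cells, MDA-MB-468/WT. They were picked by name alone, as every target whose symbol is RPL or RPS followed by A, P0 to P2, or a number with an optional A, X, L or L1. This gave 82 of the 20809 targets, namely 75 canonical genes, with 30 RPS genes of the small subunit and 45 RPL genes of the large subunit, and 7 paralogs whose symbol ends in L or L1 (RPL10L, RPL22L1, RPL26L1, RPL39L, RPL3L, RPL7L1 and RPS27L). No value was used to choose them, although results of these libraries were known when the family was proposed. RPL41 was not analysed here, and FAU, GNB2L1 (the older symbol of RACK1) and RPL36AL, whose symbols the rule does not match, were read beside the family.

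MDA-MB-468 is an established triple-negative breast cancer line, which lacks the estrogen and progesterone receptors and ERBB2 amplification. MDA-MB-468/R had been exposed for 6 months to doxorubicin (Adriamycin), cyclophosphamide (Cytoxan) and docetaxel (Taxotere) at increasing doses and then left to recover without drug, whereas the treatment label of MDA-MB-468/WT reads none and its genotype label WT. Against these labels, the protocol field of the parental samples lists the drugs too, and the groups were taken from the titles. Each group had 2 libraries, the resistant and the parental ones. Nothing in the labels tells whether they came from separate cultures, and all p-values rest on how far these libraries differ, which may reflect handling alone. The resistant cells are 1 selected subline, so the drug exposure, the selection and the months in culture cannot be told apart.

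RNA was read with the Ion AmpliSeq Transcriptome kit, in which a single short amplicon stands for each gene, and values are reads per 1000000 reads of the library (RPM) or log2(RPM + 1). An amplicon is amplified with its own efficiency, so a level is compared between libraries and not between genes. The resistant libraries held 7004480 and 7332285 reads and the parental ones 6838651 and 7980265 reads, where 3 reads came to 0.376 to 0.439 RPM. The 7 epithelial markers summed to 11400 and 11600 RPM in resistant cells and to 12800 and 12900 RPM in parental cells, ESR1, PGR and ERBB2 together stayed at 8.27 to 13.8 RPM in all 4 libraries, and the leukocyte, endothelial and red cell markers were each at or under 0.404 RPM. The 3 fibroblast markers summed to 13.8 and 10.9 RPM in resistant cells and 16.9 and 17.9 RPM in parental cells, nearly all from COL1A1, and DCN had no reads. The replicates of MDA-MB-468/R lay farther apart than those of MDA-MB-468/WT, with an SD of the log2 difference between replicates of 0.352 and 0.0859 over the ribosomal protein genes and of 0.355 and 0.210 over all 12118 tested genes.

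A cytosolic ribosome is built of ribosomal RNA and 1 copy of nearly every ribosomal protein, so the genes of the family are needed together in every growing cell, and a protein made in excess is usually degraded. Their mRNAs belong to the TOP class, which begins with a C followed by an unbroken run of pyrimidines (the 5′ terminal oligopyrimidine tract), and this tract lets mTORC1 and LARP1 adjust their translation and stability. Several proteins of the family have second roles: RPL5 and RPL11 form with 5S rRNA a particle that binds MDM2 when assembly is disturbed, and mutations of many members cause Diamond-Blackfan anaemia. Some paralogs with L or L1 in their names replace the canonical protein in some tissues, such as RPL3L in heart and skeletal muscle or RPL10L and RPL39L in the testis.

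Beyond their names, most canonical genes with a RefSeq promoter share a feature at the start of the mRNA. The start is shown here for 3 canonical genes with high levels, which all have the feature, and then for 3 pairs of a paralog and its canonical gene. The 30-base windows hold 15 bases before the annotated start and 15 from the start on, read 5′ to 3′ from RefSeq on GRCh38.p14, and capitals mark the pyrimidine run that begins with the C at the start.
RPS16, chr19:39435935-39435964, minus strand: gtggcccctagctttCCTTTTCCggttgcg
RPL35, chr9:124861943-124861972, minus strand: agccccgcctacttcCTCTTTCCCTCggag
RPS6, chr9:19380222-19380251, minus strand: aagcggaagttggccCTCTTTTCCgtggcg
RPL22L1, chr3:170870181-170870210, minus strand: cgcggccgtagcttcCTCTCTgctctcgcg
RPL22, chr1:6199581-6199610, minus strand: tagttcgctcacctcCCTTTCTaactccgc
RPS27L, chr15:63157463-63157492, minus strand: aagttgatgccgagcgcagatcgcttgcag
RPS27, chr1:153990747-153990776, plus strand: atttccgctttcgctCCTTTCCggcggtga
RPL26L1, chr5:172958714-172958743, plus strand: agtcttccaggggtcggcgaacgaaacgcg
RPL26, chr17:8383179-8383208, minus strand: aagcagcgtgtagttCTCTTCCCTTTTgcg
In these pairs only RPL22L1 keeps the run of its canonical gene, and the windows of RPS27L and RPL26L1 hold no capitals. RefSeq gives RPL26L1 a second start, which has no such run either.

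A run of C at the annotated start with at least 4 pyrimidines after it was found at 45 of the 61 canonical genes with a RefSeq promoter (73.8%), at 1 of 5 paralogs, RPL22L1, and at 1404 of all 27305 genes with a promoter (5.14%). It was rare in the other genes of ribosome building, with 6 of 64 mitochondrial ribosomal protein genes (9.38%) and 5 of 64 assembly factor genes (7.81%). When the run could begin up to 5 bases before or after the start, 52 of 61 canonical genes had it (85.2%), against 25.2% of all genes. Of the other letters searched on both strands in the 300 bases around the start, the ETS-type motif CCGGAAGT was in 9 of 61 canonical promoters (14.8%) and 4.95% of all promoters, and the E-box CACGTG was in 4 of 61 (6.56%) and 8.77%, whereas 25 of 64 assembly factor promoters (39.1%) held an E-box. These counts describe letters in a window and no binding was measured. In all, 66 of the 82 genes had a promoter entry, and RPL23, RPL8, RPL37, RPL39L, RPS2, RPL7, RPL5, RPS20, RPL3L, RPS15A, RPL30 and RPL23A were among those with none.

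As a family, the ribosomal protein genes took a larger share of the reads in the resistant cells. They made up 9.527% and 9.338% of the reads in MDA-MB-468/R, against 7.831% and 7.943% in MDA-MB-468/WT. Both resistant libraries lay above both parental ones, by 1.55 percentage points or a ratio of 1.20 between the means. The exact two-sided permutation test gave p = 0.333, which is the smallest value that 2 libraries against 2 can give. In bulk RNA a change of a family in all cells and a change in the share of cells that express it strongly cannot be told apart.

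The resistant libraries also exceeded the parental ones for each subunit and for the paralogs taken alone. Genes of the large subunit held 5.713% and 5.780% of the reads in resistant cells and 4.714% and 4.774% in parental cells, a ratio of 1.21. Genes of the small subunit held 3.814% and 3.558% in resistant cells and 3.118% and 3.169% in parental cells, a ratio of 1.17. The 7 paralogs held 0.0428% and 0.0373% in resistant cells and 0.0346% and 0.0332% in parental cells. The paralogs did not move together: of the 4 tested, both resistant libraries lay above both parental ones for 1, RPL26L1, and below for 1, RPL39L. RPL11 alone held the most reads of the family, and without it the shares were 8.886% and 8.615% in resistant cells and 7.239% and 7.347% in parental cells.

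**Figure D1:**
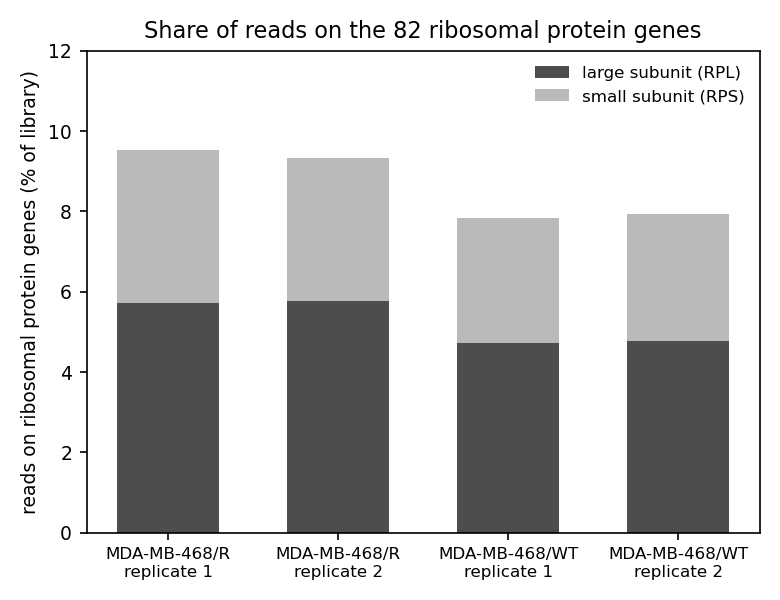
Reads on the 82 ribosomal protein genes as a percentage of all reads of each library (y axis), stacked by large (RPL) and small (RPS) subunit, with 1 bar per library. The MDA-MB-468/R bars reach 9.527% and 9.338% and the MDA-MB-468/WT bars 7.831% and 7.943%.

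Gene by gene, the change was small and mostly in one direction. Of the 78 genes with at least 10 reads in at least 2 libraries, 17 were higher in MDA-MB-468/R at an adjusted p of at most 0.05 (limma, Benjamini-Hochberg over all tested genes), or 21.8%, where 5.36% of all tested genes were higher. None was lower by that test, where 10.6% of all tested genes were lower. At an unadjusted p of at most 0.05 there were 32 higher and 1 lower, RPL17, where 12.2% of all tested genes were higher and 19.1% lower. With a fold change of at least 2.5 as well, 1 gene remained, RPS29, beside 0.809% of all tested genes higher and 2.45% lower. All 17 called genes were canonical, 6 of 29 tested in the small and 11 of 45 in the large subunit. The calls depended on the libraries: without the first or without the second MDA-MB-468/WT library 0 members were higher, with 11 and 9 higher of all tested genes, and without the first or the second MDA-MB-468/R library 38 members were higher in each case, with 703 and 751 higher of all tested genes. With no filter on low values 0 members were higher, where 0.538% of all genes were, and without a mean trend in limma's prior 2 of 78 were, RPS29 and RPL8, where 4.05% of all tested genes were, so under these settings the family had no excess of calls over all genes.

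The libraries separated for far more genes than passed the test. Both resistant libraries exceeded both parental libraries for 48 of the 78 genes (61.5%), against 26.1% of all tested genes, and below them for 3 genes (RPL17, RPL39 and RPL39L; 3.85%), against 32.2%. A log2 fold change above 0 was found for 69 of 78 genes (88.5%), against 46.4% of all tested genes. The lists of the translation machinery and its regulators, read further below, shared much of this. Their share with both resistant libraries above both parental ones ran from 47.1% (initiation factors) to 68.4% (other TOP mRNAs). Their share with a log2 fold change above 0 ran from 64.7% (initiation factors) to 80.8% (mitochondrial ribosomal proteins). The median log2 fold change was 0.235 over the 74 tested canonical genes, with a range of -0.57 to 1.38, and -0.03 over all tested genes. It was 0.25 in the large and 0.175 in the small subunit, and this difference between subunits was not tested.

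**Figure D2:**
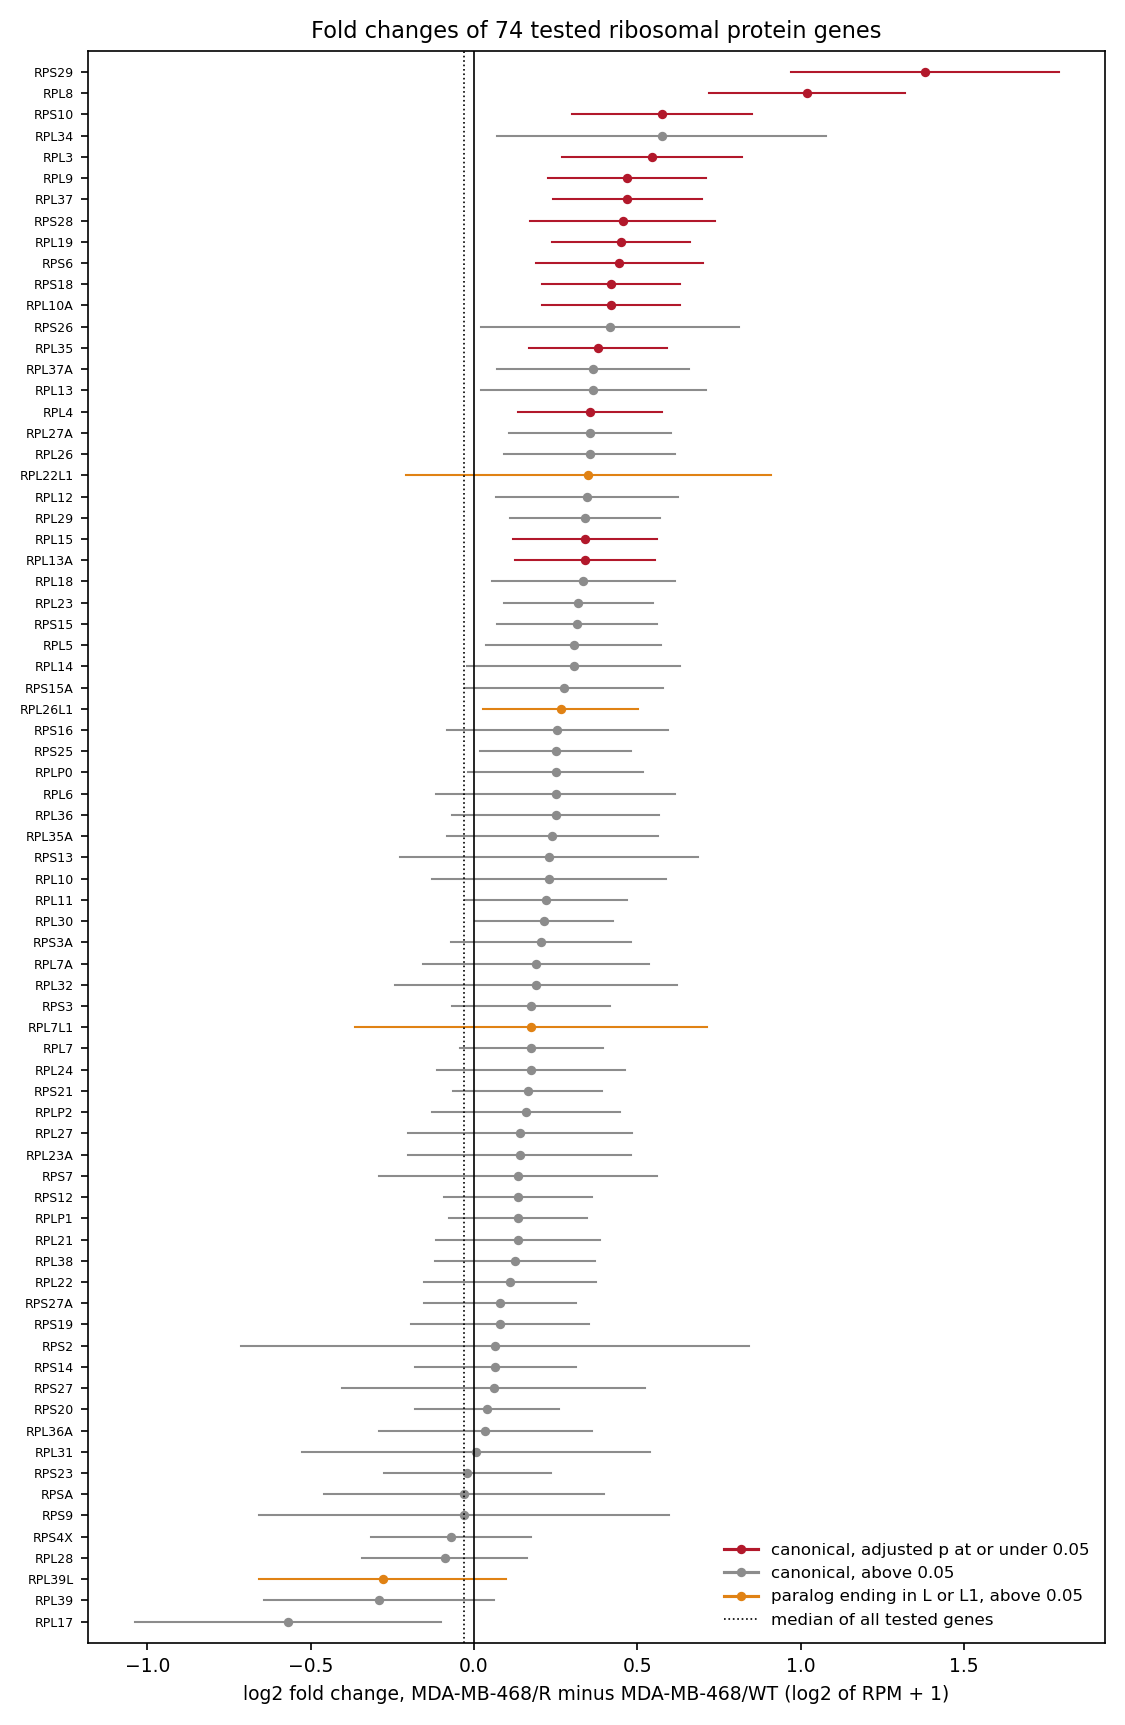
Log2 fold change of log2(RPM + 1), MDA-MB-468/R minus MDA-MB-468/WT, with its 95% interval from limma (x axis), for 74 of the 78 tested ribosomal protein genes in order (y axis). The 15 genes in red had an adjusted p of at most 0.05 and run up to RPS29 at 1.38, the 4 tested paralogs in orange did not pass, and the dotted line is the median of all tested genes, -0.03.

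Other genes with as many reads were counted beside the family. Among the genes with a mean of at least 1000 RPM, the 34 ribosomal protein genes had a median log2 fold change of 0.31 with 10 higher and 0 lower, whereas the 74 other genes had a median of -0.002 with 7 higher and 12 lower. The number of ribosomal protein genes that reached 1000 RPM was 39 and 38 in resistant libraries and 29 and 31 in parental libraries.

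Of the small subunit, 6 genes were higher. RPS29, a small zinc-binding protein of the subunit head and a Diamond-Blackfan anaemia gene, had 20.1 and 24.5 RPM in MDA-MB-468/R, against 7.57 and 8.25 RPM in MDA-MB-468/WT. Its log2 fold change of 1.38 ± 0.175 (SE; adjusted p = 0.00267, limma) was the highest of the family, 2.82-fold in RPM. It rested on 141 and 179 reads in resistant cells and 52 and 66 reads in parental cells, so this is a change in one of the most weakly read amplicons. RefSeq's start window shows no pyrimidine run for RPS29, unlike those of RPS16 and RPS6.
RPS29, chr14:49598696-49598725, minus strand, 15 bases on either side of the start: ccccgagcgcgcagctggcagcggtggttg

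RPS10, a protein of the head that is ubiquitinated when ribosomes collide, had 3080 and 2540 RPM in resistant cells and 1840 and 1910 RPM in parental cells, a log2 fold change of 0.57 ± 0.118 (adjusted p = 0.0173). RPS6, the substrate of the S6 kinases, had 2090 and 2450 RPM in resistant cells and 1650 and 1670 RPM in parental cells, and its log2 fold change was 0.45 ± 0.109 (adjusted p = 0.0330). RPS18 had 629 and 634 RPM in resistant cells and 467 and 477 RPM in parental cells, and its log2 fold change was 0.42 ± 0.0906 (adjusted p = 0.0208). For RPS18 the replicates of each group lay within 0.03 of each other on the log2 scale, while for RPS10 and RPS6 the MDA-MB-468/R libraries lay 0.28 and 0.23 apart. RPS28 passed near the threshold, at adjusted p = 0.0434, with 941 and 764 RPM in resistant cells and 599 and 638 RPM in parental cells.

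The large subunit gave 11 of the called genes, in several regions of the particle. RPL3, which lies close to the peptidyl transferase centre, had 1830 and 1500 RPM in resistant cells and 1120 and 1150 RPM in parental cells, a log2 fold change of 0.55 ± 0.118 (adjusted p = 0.0211). RPL9 had 159 and 151 RPM in resistant cells and 115 and 108 RPM in parental cells, and RPL37 had 321 and 301 RPM in resistant cells and 220 and 228 RPM in parental cells, each with a log2 fold change of 0.47 (SE 0.104 and 0.0969; adjusted p = 0.0226 and 0.0177). In both genes the groups were clearly apart, with a gap of at most 0.09 between the replicates of a group on the log2 scale. Both lost the call with no filter and without a mean trend.

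RPL19, RPL10A and RPL35 were called with closely matched replicates. RPL19 had 1540 and 1550 RPM in resistant cells and 1120 and 1140 RPM in parental cells, a log2 fold change of 0.45 ± 0.0906 (adjusted p = 0.0163). RPL10A, the protein of the mobile L1 stalk, had 1250 and 1240 RPM in resistant cells and 935 and 928 RPM in parental cells, a log2 fold change of 0.42 ± 0.0901 (adjusted p = 0.0203). RPL35, at the mouth of the exit tunnel, had 1210 and 1230 RPM in resistant cells and 935 and 941 RPM in parental cells, a log2 fold change of 0.38 ± 0.0904 (adjusted p = 0.0295). For these genes the libraries of each group were nearly equal and the groups were clearly apart. Even so, RPL19, RPL10A and RPL35 each lost the call with no filter, without a mean trend and with a replicate block.

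RPL8, RPL4, RPL13A and RPL15 were also among the called genes of the large subunit. RPL4, whose loop lines the exit tunnel and which held the second most reads of the family, had 3980 and 4040 RPM in resistant cells and 3100 and 3170 RPM in parental cells (adjusted p = 0.0425). RPL13A, which interferon-gamma can release from the ribosome in myeloid cells, had 1000 and 1020 RPM in resistant cells and 780.0 and 819 RPM in parental cells (adjusted p = 0.0456). RPL15 had 1960 and 1830 RPM in resistant cells and 1500 RPM in both parental libraries, with an adjusted p of 0.0498 just inside the threshold. Just outside stood RPL29 (adjusted p = 0.0570), RPL27A (0.0639) and RPL23 (0.0667), whose log2 fold changes of 0.34, 0.35 and 0.32 were close to the 0.34 of RPL15.

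Of the 13 called canonical genes with a promoter entry, 5 had the pyrimidine run at the annotated start and 10 within 5 bases of it, and of the 48 canonical genes with an entry that were not called, 40 had it at the start and 42 within 5 bases. These counts are a description with no test.

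**Figure D3:**
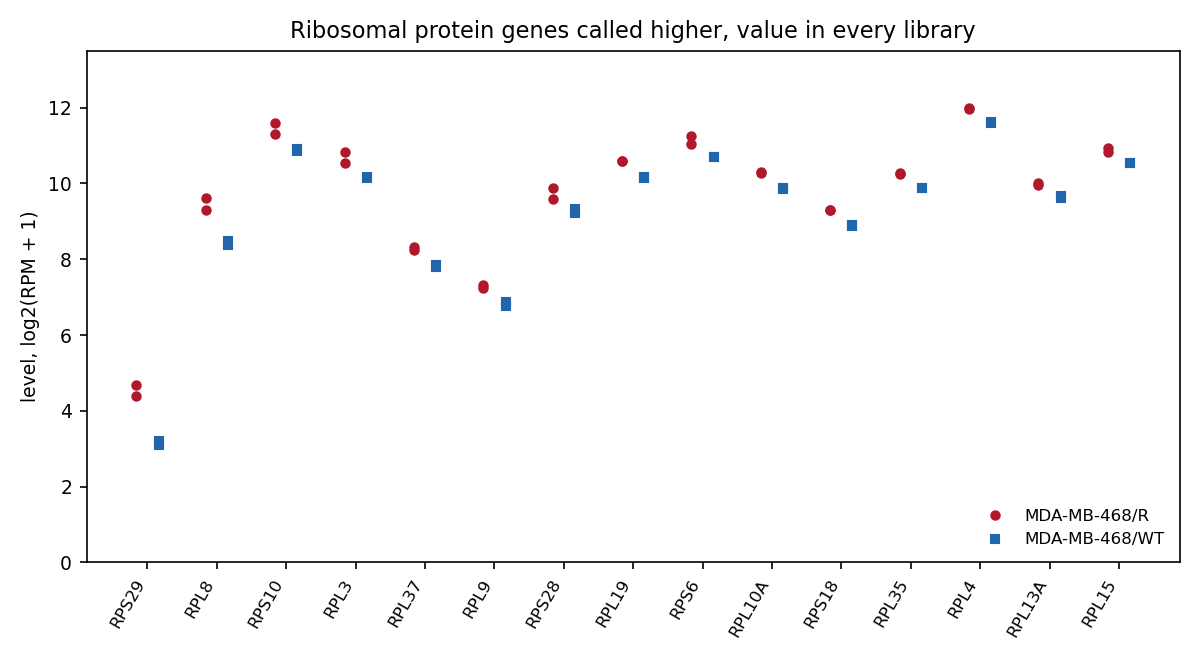
Level as log2(RPM + 1) (y axis) in every library for 15 of the 17 ribosomal protein genes higher in MDA-MB-468/R, ordered by log2 fold change (x axis), with MDA-MB-468/R as red circles left of MDA-MB-468/WT as blue squares. In all 15 genes both MDA-MB-468/R points lie above both MDA-MB-468/WT points, farthest for RPS29 and RPL8.

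RPL8, another protein next to the peptidyl transferase centre, stood out with the second highest change of the family. It had 786 and 625 RPM in resistant cells and 332 and 359 RPM in parental cells, a log2 fold change of 1.02 ± 0.128 (adjusted p = 0.00251, limma), 2.04-fold in RPM. Its neighbours moved too. They were the nearest tested genes outside the family in RefSeq's order (GRCh38.p14), up to 10 on each side. Of these 19 genes, 10 were higher and 0 lower, with a median log2 fold change of 0.79. The other 3 members on chromosome 8 did not pass. RPS20 had a log2 fold change of 0.04, RPL7 of 0.18 and RPL30 of 0.22, and the medians of their neighbours were -0.075, -0.192 and 0.085. Over the chromosome, 85 of 382 tested genes were higher and 28 lower, with a median of 0.135. The part of the neighbourhood in the value of RPL8 was not tested.

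No other called gene lay among neighbours that moved as far. The median log2 fold change of the 20 neighbours was 0.047 for RPS29, 0.128 for RPS10, -0.037 for RPL3 and 0.293 for RPL37. Members on chromosome X lay among genes that went the other way: over the chromosome 139 of 380 tested genes were lower in MDA-MB-468/R and 8 higher, with a median log2 fold change of -0.45. None of the 4 members there passed, and their median was -0.017. RPS4X had 1810 and 1580 RPM in resistant cells and 1810 and 1750 RPM in parental cells, with a log2 fold change of -0.07 (95% interval -0.314 to 0.174). RPL10 had 3190 and 2300 RPM in resistant cells and 2300 and 2320 RPM in parental cells, so its log2 fold change of 0.23 came from 1 resistant library. RPL36A had 961 and 728 RPM in resistant cells and 842 and 791 RPM in parental cells. RPL39, the small protein of the exit tunnel, had 494 and 679 RPM in resistant cells and 723 and 694 RPM in parental cells, a log2 fold change of -0.29 with adjusted p = 0.236.

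RPL11, RPL4 and RPS16 were among the 5 members with the most reads. RPL11 had 7030 and 7910 RPM in resistant cells and 6380 and 6430 RPM in parental cells, a log2 fold change of 0.22 with adjusted p = 0.207. RPS16 had 3560 and 2650 RPM in resistant cells and 2570 RPM in both parental libraries, a log2 fold change of 0.26 with adjusted p = 0.277. In RPL11 and RPS16 both resistant libraries were above both parental ones, but the resistant libraries differed from each other by 0.17 and 0.43 on the log2 scale.

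None of the MDM2-binding proteins RPL5, RPL11 and RPL23 passed the test. RPL5, the partner of RPL11 in the 5S particle, had 2100 and 1750 RPM in resistant cells and 1550 RPM in both parental libraries, a log2 fold change of 0.30 with adjusted p = 0.118. RPL23 had 1420 and 1560 RPM in resistant cells and 1180 and 1200 RPM in parental cells. MDM2 itself had 38.4 and 49.2 RPM in resistant cells and 45.2 and 47.5 RPM in parental cells, so its groups overlapped.

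RPLP0, RPLP1 and RPLP2, which form the stalk that recruits elongation factors, did not pass either. RPLP0 had 1640 and 1360 RPM in resistant cells and 1230 and 1280 RPM in parental cells, a log2 fold change of 0.25 (adjusted p = 0.188). RPLP1 had 647 and 634 RPM in resistant cells and 579 and 587 RPM in parental cells, and RPLP2 had 2240 and 2780 RPM in resistant cells and 2190 and 2270 RPM in parental cells, with log2 fold changes of 0.14 and 0.16. RPLP2 overlapped between the groups. RPS27A, which is made as a fusion with ubiquitin, had 831 and 922 RPM in resistant cells and 848 and 808 RPM in parental cells. It did not pass the test.

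The resistant replicates disagreed on many members by at least as much as the groups differed. The log2 fold change was larger than the gap between the resistant replicates in only 41 of the 78 tested members. The widest gaps were those of RPS2 and RPS9, and the paralogs RPL22L1 and RPL7L1 came next at 0.80 each. RPS2, a protein at the mRNA entry site, had 1240 and 529 RPM in resistant cells, around the 786 and 764 RPM of parental cells, a gap of 1.23 between the resistant replicates on the log2 scale. RPS9, also at the entry site, had 507 and 259 RPM in resistant cells, around the 369 and 371 RPM of parental cells, a gap of 0.97. RPS27 had 559 and 349 RPM in resistant cells and 427 and 421 RPM in parental cells, a gap of 0.68. In RPS2, RPS9 and RPS27 the parental replicates were nearly equal. Without the first MDA-MB-468/R library the log2 fold change of RPS2 was -0.55 (adjusted p = 0.0241) and that of RPS27 -0.28 (adjusted p = 0.0380), and without the second that of RPS9 was 0.46 (adjusted p = 0.0279), so for these genes no direction can be given.

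The gap between the resistant replicates went with base composition. Across the 78 tested members, the log2 difference between the first and the second MDA-MB-468/R library correlated with the GC content of the transcript with Pearson's r = 0.38 and Spearman's rho = 0.37, and across 10706 other genes with 0.35 and 0.36. These are descriptions across genes of the same 2 libraries, which are not independent replicates. Among the 18 members with a GC content of at least 55% the median difference was 0.28, and among the 15 with under 45% it was -0.23. For the change between the groups the values were r = 0.07 and rho = 0.03, with median log2 fold changes of 0.28, 0.22 and 0.31 in members of at least 55%, 45 to 55% and under 45%. The transcript stands in for the amplicon here, whose sequence was not used, and the part of base composition in any result was not tested.

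A few canonical genes gave very few reads although every ribosome needs their product. RPS24 had 1 and 3 reads in resistant cells and 0 and 5 reads in parental cells and could not be tested. RPL31 had 2.58 and 2.46 RPM in resistant cells and 2.92 and 2.14 RPM in parental cells, RPSA had 6.41 RPM in both resistant libraries and 6.73 and 6.41 RPM in parental cells, and RPS7 had 18.4 and 14.2 RPM in resistant cells and 15.4 and 13.9 RPM in parental cells. The median of the family was 951 and 909 RPM in resistant libraries and 808 and 805 RPM in parental libraries. The family has 1133 pseudogene copies named in GENCODE 29, spread over 75 of the 82 genes, among them 74 of RPSA, 32 of RPS29, 30 of RPL31 and 10 of RPS24, and the part of an amplicon's design or of reads shared with such copies in these levels was not tested.

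RPL17 and RPL34 were weakly read members with values in opposite directions. RPL17 had 3.44 and 3.14 RPM in resistant cells and 5.11 and 5.63 RPM in parental cells, a log2 fold change of -0.57 with a 95% interval of -1.04 to -0.10 and adjusted p = 0.0997. RPL34 had 7.57 and 9.56 RPM in resistant cells and 4.70 and 6.16 RPM in parental cells, a log2 fold change of 0.57 with an interval of 0.07 to 1.08 and adjusted p = 0.116. Neither passed the test, and both rested on 23 to 70 reads per library.

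None of the 4 tested paralogs passed the test, and RPL10L, RPL3L and RPS27L had too few reads to be tested. RPL7L1 had 216 and 123 RPM in resistant cells and 148 and 141 RPM in parental cells, and RPL22L1, the close relative of RPL22, had 40.4 and 71.0 RPM in resistant cells and 41.5 and 42.1 RPM in parental cells. In both, the resistant replicates lay 0.80 apart on the log2 scale and 1 of them fell under both parental values. RPL26L1 had 157 and 160.0 RPM in resistant cells and 136 and 127 RPM in parental cells, with no overlap and a log2 fold change of 0.27 ± 0.102 (adjusted p = 0.124). RPL39L had 14.9 and 17.3 RPM in resistant cells and 18.6 and 20.9 RPM in parental cells, a log2 fold change of -0.28 ± 0.162 (adjusted p = 0.285), which was negative like that of RPL39.

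The remaining paralogs were at or near the limit of the reads. RPL10L had 0 reads in 3 libraries and 1 read in the second MDA-MB-468/WT library, and RPL3L had 0 reads in 3 libraries and 1 read in the first MDA-MB-468/WT library, so both stayed under the 3 reads used as a floor. RPS27L had 6 and 7 reads in resistant cells and 9 and 10 reads in parental cells, or 0.853 and 0.959 RPM against 1.31 and 1.25 RPM, and did not reach the 10 reads needed in 2 libraries. Counts of this size limit only how precisely the reads were counted, and no fold change is given for RPL10L and RPL3L.

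Set against their canonical genes within each library, the 4 tested paralogs differed between the groups by less than the gap between the resistant replicates. The log2 ratio of RPL22L1 to RPL22 was -2.40 and -1.84 in resistant cells and -2.36 in both parental libraries, a difference of 0.24 with a gap of 0.56 between the resistant libraries. The ratio of RPL7L1 to RPL7 was -2.57 and -3.46 in resistant cells and -3.0 and -3.03 in parental cells, with a difference of 0. The differences were -0.09 for RPL26L1 to RPL26 and 0.01 for RPL39L to RPL39, each smaller than the gap between replicates. RPL36AL, outside the naming rule, differed by 0.14 from RPL36A with no overlap, and the exact two-sided permutation test gave p = 0.333, the smallest value possible with 2 against 2, and 0.667 to 1 for the other 4 pairs tested. Adjusted over the 5 pairs none passed.

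**Figure D4:**
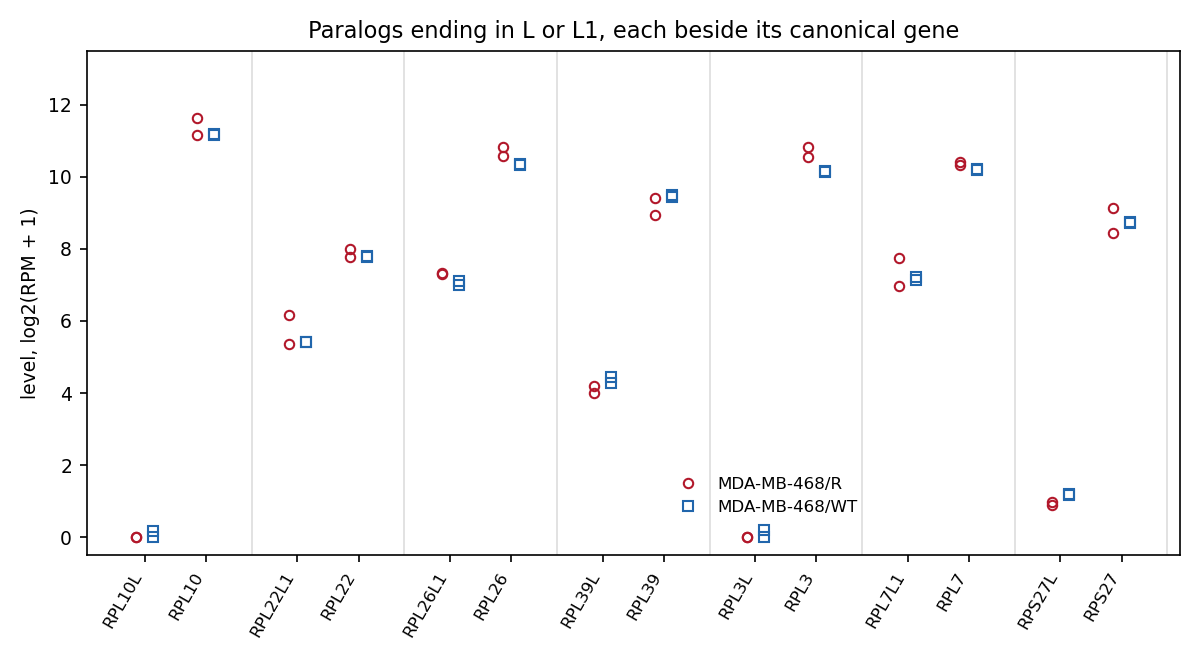
Level as log2(RPM + 1) (y axis) of the 7 paralogs ending in L or L1, each left of its canonical gene (x axis), in every library, with MDA-MB-468/R as red circles left of MDA-MB-468/WT as blue squares. RPL10L and RPL3L lie at 0 or 1 read, RPL22L1 and RPL7L1 show the wide gap of 0.80 between the MDA-MB-468/R circles, where the parental squares lie at most 0.07 apart.

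How far a paralog can be told from its canonical gene depends on their likeness. Over the coding sequence, RPL39L shares 94.8% of its bases with RPL39, RPL36AL 89.9% with RPL36A, RPL10L 89.3% with RPL10 and RPL26L1 84.1% with RPL26, whereas RPS27L shares 77.8%, RPL3L 75.2%, RPL22L1 66.6% and RPL7L1 55.5%. RPL10L had at most 1 read in a library, beside 2300 to 3190 RPM for RPL10. For RPL39L, reads shared with RPL39 were not tested.

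Of the ribosomal proteins outside the naming rule, GNB2L1 (RACK1), the scaffold protein of the small subunit, had 5370 and 6040 RPM in resistant cells and 3900 and 3960 RPM in parental cells, a log2 fold change of 0.54 ± 0.105 (adjusted p = 0.0147). FAU had 571 and 487 RPM in resistant cells and 487 and 507 RPM in parental cells and overlapped between the groups.

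The machinery around the ribosome was read from lists of genes with the same fit, and the lists share some genes. Other TOP mRNAs, which encode elongation and initiation factors and RNA-binding proteins, had 7 of 19 tested genes higher and 0 lower with a median log2 fold change of 0.31. Their 3 smallest p-values belonged to EIF3H, EIF3E and EEF1D, and all 3 genes lie on chromosome 8 like RPL8: EIF3H had 638 and 612 RPM in resistant cells and 314 and 328 RPM in parental cells (log2 fold change 0.96, adjusted p = 8.07e-04), EIF3E had a log2 fold change of 0.92 and EEF1D of 0.85. EEF2, the translocase, had 1690 and 1700.0 RPM in resistant cells and 1280 and 1300.0 RPM in parental cells (log2 fold change 0.40, adjusted p = 0.0261). Among translation factors as a whole, 2 of 10 elongation factors were higher and 1 lower with a median of 0.218, and 3 of 34 initiation factors were higher and 2 lower with a median of 0.132.

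Genes for building the ribosome were counted next. Of 74 assembly factors 5 were higher and 3 lower, with a median of 0.135. NOP16, a nucleolar protein, had 133 and 151 RPM in resistant cells and 80.6 and 84.6 RPM in parental cells, whereas LTV1, a factor for the export of the small subunit, had 20.3 and 21.5 RPM in resistant cells and 41.2 and 35.3 RPM in parental cells (log2 fold change -0.84, adjusted p = 0.00942). Of 30 subunits and regulators of RNA polymerases I and III, 2 were higher and 1 lower, with a median of 0.13, and the repressor of RNA polymerase III, MAF1, was higher with 192 and 203 RPM in resistant cells and 108 RPM in both parental libraries (adjusted p = 0.00181). MYC had 162 and 129 RPM in resistant cells and 123 and 111 RPM in parental cells, a log2 fold change of 0.30 that did not pass (adjusted p = 0.185). Of the 16 MYC and mTORC1 regulators the 1 gene higher was DEPTOR, an inhibitor within the mTOR complexes, with 33.8 and 32.8 RPM in resistant cells and 6.57 and 8.25 RPM in parental cells (log2 fold change 2.04, adjusted p = 4.39e-04). DEPTOR and MAF1 lie on chromosome 8 like RPL8, where 85 of 382 tested genes were higher and 28 lower. The part of the chromosome in their values was not tested.

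The mitochondrial ribosome, whose proteins are encoded in the nucleus by a separate set of genes, had 3 of 73 genes higher (4.11%) and 0 lower, with a median log2 fold change of 0.185. MRPS30 had 208 and 250 RPM in resistant cells and 148 and 144 RPM in parental cells (adjusted p = 0.0119). Both resistant libraries were above both parental ones for 50.7% of the mitochondrial and 61.5% of the cytosolic genes. The cytosolic family had 21.8% of its genes higher and a median of 0.235, and the difference between the 2 families was not tested. Of the 25 targets named as ribosomal protein pseudogenes, 13 were tested, with 0 higher and 2 lower and a median of -0.06. Both resistant libraries were above both parental ones for 0 of these 13. Among the untested targets, RPL19P12 had 8 and 7 reads in resistant cells and 6 and 3 reads in parental cells. RPS10P7 had 3.72 and 2.46 RPM in resistant cells and 7.88 and 10.2 RPM in parental cells, the opposite direction to RPS10.

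**Figure D5:**
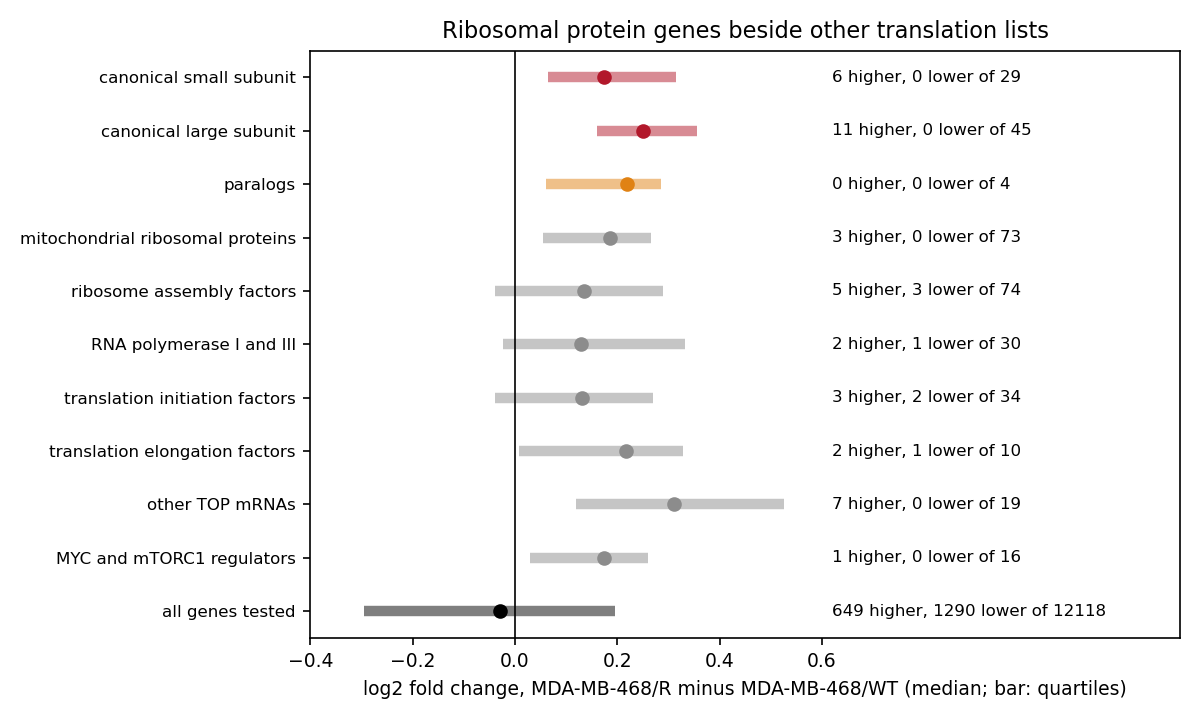
Median log2 fold change (point) with the quartiles (bar) of resistant minus parental cells on the x axis, for the subunits, the paralogs, other lists of the translation machinery and all tested genes (y axis), with the counts of genes called higher and lower in resistant cells. The medians of the lists run from 0.13 to 0.31, and that of all tested genes is -0.03.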

How the data were processed

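Total RNA was sequenced for 2 libraries of MDA-MB-468/R and 2 of MDA-MB-468/WT with the Ion AmpliSeq Transcriptome kit, and samples were grouped by their GEO titles. The authors deposited log2 values for 20809 targets, which are log2 of the reads per 1000000 plus 1 (RPM + 1), rounded to 2 decimals. Their methods name the Torrent Mapping Alignment Program and DEGSeq, while Bowtie2, bedtools and edgeR stand in the submitters' processing notes, with no version. No genome build is given in the sources used here. No other scaling was found, since 2 to the power of the values minus 1 summed to about 1000000 in each library. Reads were recovered from the size of 1 read in the lowest values, and of the values of up to 20 reads 97.8% to 100% came out whole within 0.1. Reads are amplified copies without molecular identifiers, so the floor of 3 reads per library covers counting error only.

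Differences in the log2 values were tested by limma 3.58.1 (R 4.3.3, empirical Bayes with a mean trend, no replicate block) on the 12118 genes with at least 10 reads in at least 2 libraries, of which 78 were ribosomal protein genes, with Benjamini-Hochberg adjustment over all of them and 2 residual and 5.4 prior degrees of freedom. DEGSeq was not used. The script was run on simulated data with a smaller replicate spread than observed and larger changes than most called members had. That run does not bear on the calls made here. Replicate numbers of the 2 groups were not used to pair the libraries in the main fit. The deviations of same-numbered libraries correlated at 0.009 across genes, which does not tell how the libraries were handled. Errors are SE from limma or SD of 2 libraries. Shares and ratios were compared by exact permutation tests. Coding identity came from global alignment of GENCODE 29 sequences (Biopython 1.88), start windows from RefSeq promoters (GRCh38.p14), and pseudogene copies by name from GENCODE 29.

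Members and lists were chosen with earlier results of these data known. Named genes were the paralogs with their canonical genes, the 12 called members with the smallest adjusted p in each direction, members on chromosome X, the MDM2-binding and stalk proteins and RPS27A, the 5 members with the most reads, the 3 with the widest gap between replicates, and up to 3 genes per list. RPS28, RPL13A, RPL15, RPL29, RPL27A, RPL17, RPL34, RPL31, RPSA, RPS7, RPS24, RPS10P7 and the members on chromosome 8 were added to the text once their values had been seen. Alternatives tried were RLE scaling, scaling to the reads outside the family, 4 RPM added in place of 1, no filter, limma-voom on the recovered reads, no mean trend, a replicate block, an unadjusted p, and leaving out each library. Some genes that these rules name are not reported here.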

Additional observations from a re-analysis of the deposited data

How the results depend on the processing

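The 17 members higher in MDA-MB-468/R became 18 with RLE scaling, 18 with scaling to the reads outside the family, 15 with 4 RPM added and 17 with limma-voom on the recovered reads, which called the same 17. They became 0 with no filter on low values, 2 without a mean trend and 32 at an unadjusted p, and 0 to 38 when each library was left out, with 0 without either MDA-MB-468/WT library and 38 without either MDA-MB-468/R library, where the spread came from the replicates of the other group alone. The members lower, 0 by the reported test, were 1 without a mean trend, 1 at an unadjusted p and 0 to 3 with each library left out. The median log2 fold change of the canonical members was 0.27 with RLE scaling, which moved the median of all genes to 0, and 0.228 to 0.26 with a library left out. That of the paralogs was -0.085 with no filter, where the 7 paralogs with their few reads entered in place of 4, and 0.05 to 0.263 with a library left out. The cause of the other changes was not tested.

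A replicate block left 6 members higher, all of them among the 17 (RPS29, RPL8, RPS10, RPL3, RPL9 and RPL37), and 497 of all genes higher in place of 649. Only the number is known to be shared between the libraries, and the labels do not tell whether same-numbered ones were handled together. What the calls lost under this pairing mean can therefore not be told. Of 407 comparisons of named members with an alternative, 321 kept their side of the threshold. That count includes members not called by the reported test that stayed uncalled, so it does not tell how stable the calls were. Of the 17 called members, 17 lost the call with no filter, 15 without a mean trend and 11 with a replicate block. The sign changed in 11, and in 3 of these the turned value passed the threshold: RPS2 at -0.55 and RPS27 at -0.28 without the first MDA-MB-468/R library, and RPS9 at 0.455 without the second. Without the other MDA-MB-468/R library these were 0.68, 0.4 and -0.515. Depth limited RPS24, RPL10L, RPL3L and RPS27L, which had at most 10 reads in a library, and 2 libraries per group limit every exact test to p = 0.333.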
